A study of Mus musculus with 13 samples.

Results

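The genes described here are 10 mouse genes that bind, carry or release metals, of 47643 genes counted in brain vascular RNA from 13 mice. They form a list of gene symbols, set with earlier results of these data known: the metallothioneins *Mt1*, *Mt2* and *Mt3*, the metal importers *Slc39a14* and *Slc11a2*, the transferrin receptor *Tfrc*, the ferritin chains *Fth1* and *Ftl1*, the iron exporter *Slc40a1* and the haem oxygenase *Hmox1*. Each symbol matched 1 Ensembl identifier, and all 10 genes passed the filter on low counts that left 17285 genes for testing. All mice were CD1 males, 8 to 10 weeks old. Of these, 4 served as sham-vehicle controls, 5 (LPS-vehicle) received lipopolysaccharide, a bacterial outer membrane component that triggers systemic inflammation, with vehicle, and 4 (LPS-CPD-4645) received LPS followed by CPD-4645, an inhibitor of monoacylglycerol lipase. Each LPS dose was 3 mg/kg, injected at 0, 6 and 24 h; per the sample labels a dose of 10 mg/kg CPD-4645 followed each of them by 30 min (the study's text also gives a later time), and the tissue was collected at 28 h. No mice received CPD-4645 without LPS, so the effect of the compound alone was not measured. A vascular fraction was prepared from frozen brains that had not been perfused, so the material included blood.

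Metallothioneins are small cysteine-rich proteins that bind zinc and copper. *Mt1* and *Mt2* are expressed widely and are induced by zinc, glucocorticoids and inflammatory cytokines, whereas *Mt3* is mainly a brain form. Iron enters cells through the transferrin receptor, through Slc11a2 (DMT1) and, when not bound to transferrin, through the zinc and iron importer Slc39a14 (ZIP14). It is stored in ferritin, which is built from heavy (Fth1) and light (Ftl1) chains, and leaves through ferroportin, the product of *Slc40a1*. Hmox1 releases iron from haem. During inflammation, hepcidin and cytokines are known to favour retention of iron in cells.

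Depth was 7813559 to 55133373 counts per library, with a median of 26989885, and the lowest count of any of the 10 genes in any library was 20, for *Slc40a1*. Replicates of every group differed by more than counting error. By RT-qPCR the paper reported enriched *Gfap*, *Pdgfrb* and *Pecam1* and low *Syp* and *Aif1* in this fraction. Here marker genes were summed: the level of 6 neuronal markers (among them *Syp*, *Snap25* and *Rbfox3*) was 8564 to 9815 CPM (depth-scaled counts) in the sham-vehicle libraries. That of 7 endothelial markers (among them *Pecam1*, *Cldn5* and *Cdh5*) was 239 to 382 CPM. These are sums of unlike genes with no whole-brain sample beside them, so they cannot test enrichment of vessels. The libraries therefore held much RNA of neurons, and no marker in either list was at 0. In such bulk RNA, a change in the number of cells of a type and a change in RNA per cell cannot be told apart.

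*Mt1*, *Mt2* and *Mt3* lie in a cluster on the plus strand of chromosome 8 (GRCm38): *Mt3* at chr8:94152607-94154146, *Mt2* at chr8:94172664-94173568 and *Mt1* at chr8:94179082-94180327, with 18517 bases between *Mt3* and *Mt2* and 5513 bases between *Mt2* and *Mt1*. The 250 bases before the RefSeq start of each (GRCm38.p6) are shown because *Mt1* and *Mt2* changed with LPS and their neighbour *Mt3* did not pass the test. Capitals mark the letters TGCACNC or TGCGCNC on either strand, the core of the metal response element bound by the zinc-sensing factor MTF-1.
Mt1 (chr8:94178839-94179088, plus strand): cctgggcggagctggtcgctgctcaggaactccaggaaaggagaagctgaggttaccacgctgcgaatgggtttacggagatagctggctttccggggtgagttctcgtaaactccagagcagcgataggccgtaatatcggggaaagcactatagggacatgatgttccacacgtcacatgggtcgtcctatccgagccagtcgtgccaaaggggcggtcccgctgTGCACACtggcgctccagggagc
Mt2 (chr8:94172368-94172617, plus strand): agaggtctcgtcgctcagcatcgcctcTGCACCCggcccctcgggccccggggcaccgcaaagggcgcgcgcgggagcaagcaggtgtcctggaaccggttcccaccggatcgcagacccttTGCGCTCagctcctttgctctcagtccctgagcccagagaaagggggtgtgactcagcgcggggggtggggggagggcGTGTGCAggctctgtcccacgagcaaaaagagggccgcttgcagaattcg
Mt3 (chr8:94152357-94152606, plus strand): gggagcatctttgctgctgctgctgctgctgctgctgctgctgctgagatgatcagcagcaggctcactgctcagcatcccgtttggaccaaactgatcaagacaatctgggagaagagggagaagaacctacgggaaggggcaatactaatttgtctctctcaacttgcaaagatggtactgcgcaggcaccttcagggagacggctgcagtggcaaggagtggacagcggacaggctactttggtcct

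Over the whole 300-base window, which adds the 50 bases after the start, the core matched 3 times at *Mt1* (at bases -23 to -17, 2 to 8 and 20 to 26, counted with base 0 as the first transcribed base), 4 times at *Mt2* (3 of them before the start) and 1 time at *Mt3* (after the start). At least 1 match was found in 25.7% of all 32851 promoter windows, at least 3 matches in 1.97% and at least 4 in 0.517%. The antioxidant response core TGACNNNGC matched 1 time in the *Mt2* window (bases -79 to -71) and not in the *Mt1* or *Mt3* window, against at least 1 match in 12.4% of all windows. Neither the STAT letters TTCNNNGAA nor a full palindromic glucocorticoid response element occurred in the windows of these 3 genes, which says only that these letters were not in these windows; they occurred in 8.3% and 0.00913% of all windows. RefSeq windows were on hand for 6 of the 10 genes. Among the others searched, the *Tfrc* windows held 2 metal response cores, which overlapped each other on opposite strands, and those of *Fth1* and *Ftl1* held none. A match is a run of letters and not evidence of binding. Each metallothionein window was placed on 1 RefSeq start of its gene. That start lay before the GENCODE gene start given above for *Mt2* and after it for *Mt1*. Letters near any other start lay outside the search, so the counts describe these windows and not the whole promoters.

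The iron genes share a different kind of sequence. Iron regulatory proteins bind a hairpin, the iron-responsive element, in messenger RNA: near the 5′ end it restrains translation, and in the 3′ part it protects the message from decay. Because such control acts on translation for ferritin and ferroportin, and on RNA levels for *Tfrc*, the elements bear on what RNA-seq counts can show for each gene. The GENCODE M21 transcripts were searched for the loop CAGTGN with an unpaired C and 5 paired bases on each side. In any transcript of the basic set, it occurred in 1.32% of 21899 protein-coding genes. For the 10 genes only principal transcripts were counted, a narrower search, and 4 of the 10 held a match. The 30 bases around each match are shown, as DNA letters, with the loop in capitals.
Fth1, 5′ part: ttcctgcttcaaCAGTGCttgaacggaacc
Ftl1, 5′ part: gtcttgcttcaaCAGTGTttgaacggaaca
Slc40a1, 5′ part: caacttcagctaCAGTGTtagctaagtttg
Tfrc, 3′ part, at base 3321 of the transcript: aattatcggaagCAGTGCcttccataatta
Tfrc, 3′ part, at base 3700: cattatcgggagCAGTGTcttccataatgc
Tfrc, 3′ part, at base 3765: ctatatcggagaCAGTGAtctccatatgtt
Tfrc, 3′ part, at base 3812: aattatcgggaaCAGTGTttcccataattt

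The match lay before the coding sequence in *Fth1*, *Ftl1* and *Slc40a1*, as in any basic-set transcript of 0.128% of the genes searched. It lay after it in *Tfrc*, which held 4 matches. The match began at base 84 of the *Ftl1* transcript and base 96 of that of *Slc40a1*. In *Fth1* it began at base 664 of a 1494-base transcript, so it was not near the 5′ end of the transcript used. No match was found in the principal transcripts of the other 6 genes, and their other transcripts are not covered by this result. An element with a bulge or a mismatch in its stem would not have been found by this search.

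The first comparison, LPS-vehicle with sham-vehicle, asked what systemic LPS changed. *Mt1* and *Mt2* rose, the importer *Slc39a14* rose and the exporter *Slc40a1* fell, while *Tfrc* and *Mt3* did not pass the test. These 4 of 10 genes passed both limits, an edgeR adjusted p no higher than 0.05 and a 2-fold change or more, against 5.68% of all genes tested; 3 were higher (background 4.68%) and 1 was lower (background 0.995%). Non-overlapping groups were found for 6 of the 10 genes (background 18.1%), and the same 6 passed the adjusted p alone (background 19.9%); the further ones were *Fth1* and *Hmox1*, whose rises stayed under 2-fold. The median log2 fold change of the 10 genes was 0.49, and that of all genes tested was -0.00065. The second comparison, LPS-CPD-4645 with LPS-vehicle, asked what the compound changed on top of LPS. By edgeR 0 of the 10 genes passed both limits there (background 5.90%), as with limma-voom and DESeq2, and 3 had an unadjusted p under 0.05. The same 3 passed the adjusted p alone (background 30.5%), 2 of them higher (*Mt1* and *Mt2*, background 14.1%) and 1 lower (*Fth1*, background 16.4%). *Mt1* and *Mt2* were also the 2 genes whose groups did not overlap (background 23.0%, or 11.1% for higher). With sham-vehicle as the control, 5 of 10 genes passed both limits in LPS-CPD-4645 mice (background 11.1%): *Mt1*, *Mt2*, *Slc39a14* and *Hmox1* were higher (background 6.11%) and *Slc40a1* was lower (background 4.98%). Without the fold limit 7 passed (background 38.8%), and 7 had groups that did not overlap (background 37.5%), a comparison in which such calls were common. The 3 comparisons share libraries, so they are not independent of each other.

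**Figure D1:**
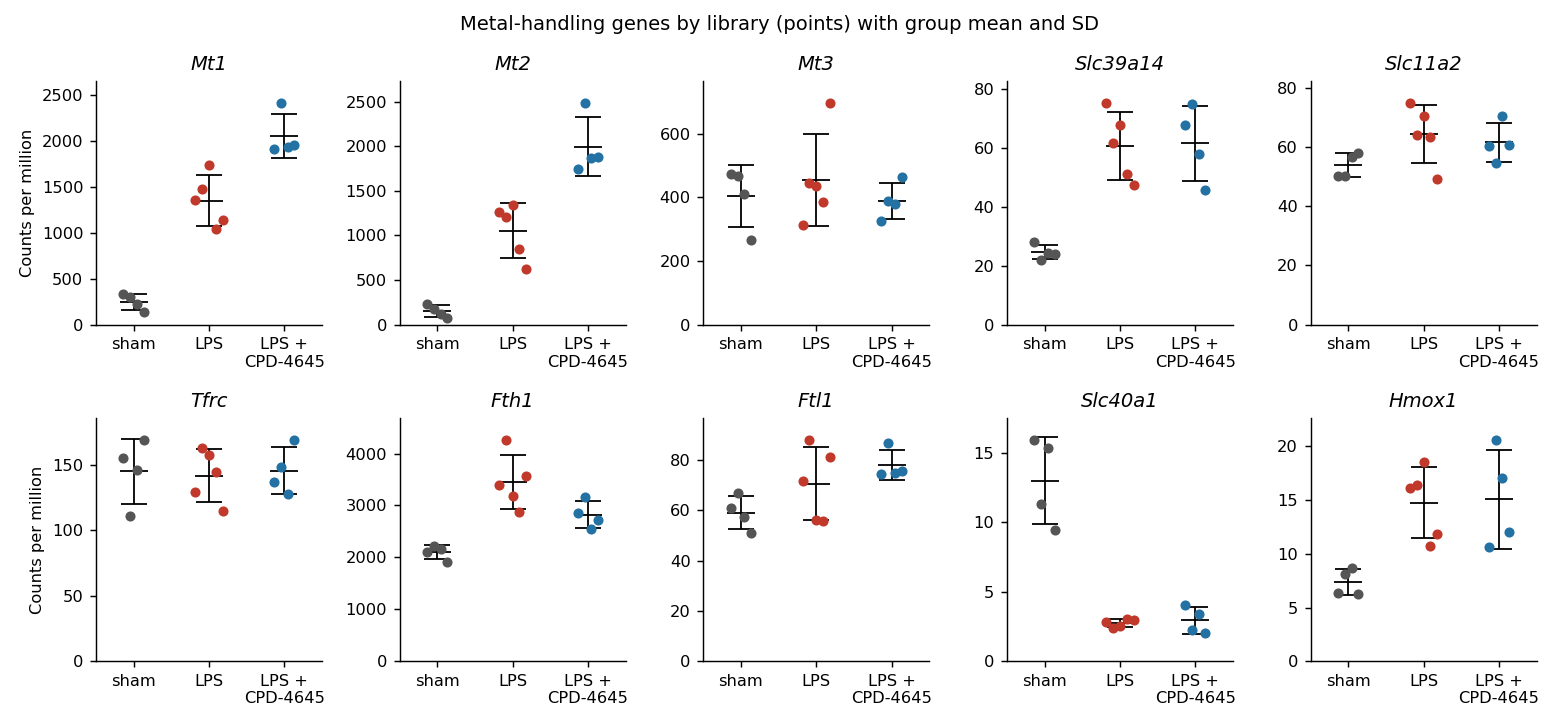
CPM of each of the 10 genes (vertical axes, each from 0) in the 13 libraries, 1 point per mouse, with the group mean and SD as horizontal marks, for sham-vehicle (n = 4), LPS-vehicle (n = 5) and LPS-CPD-4645 (n = 4) mice. *Mt1* and *Mt2* step up from sham-vehicle to LPS-vehicle to LPS-CPD-4645 without overlap, and *Slc40a1* lies at 9.43 CPM or above in the sham-vehicle libraries and at 4.03 CPM or below in the others.

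*Mt1* stood at 339, 298, 225 and 141 CPM in the sham-vehicle libraries, at 1353, 1476, 1739, 1039 and 1143 CPM in the LPS-vehicle libraries, and at 1907, 2410, 1933 and 1956 CPM in the LPS-CPD-4645 libraries. Every LPS-vehicle library lay above every sham-vehicle library, and every LPS-CPD-4645 library lay above every LPS-vehicle library. *Mt1* thus rose 5.38-fold after LPS (log2 fold change 2.43, SE 0.21, edgeR adjusted p = 1.8e-07). Under CPD-4645 it was a further 1.52-fold higher (log2 fold change 0.60, SE 0.19, 95% interval 0.21 to 1.003, edgeR adjusted p = 0.022), which is under the 2-fold limit. This adjusted p rose to 0.079 without LPS-CPD-4645 replicate 2 and to 0.056 without LPS-vehicle replicate 4, and it passed 0.05 in 19 of the 21 alternatives.

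*Mt2* was at 233, 176, 124 and 76.9 CPM in the sham-vehicle libraries, at 1258, 1204, 1345, 847 and 623 CPM after LPS, and at 1743, 2483, 1870 and 1881 CPM after LPS and CPD-4645. Its groups did not overlap in any of the comparisons, as for *Mt1*. The rise after LPS was 6.92-fold (log2 fold change 2.79, SE 0.27, edgeR adjusted p = 9.2e-07). With CPD-4645 the level was 1.89-fold that of LPS-vehicle mice (log2 fold change 0.92, SE 0.25, 95% interval 0.40 to 1.44, edgeR adjusted p = 0.0092), and the adjusted p passed 0.05 in all 21 alternatives. Leaving out LPS-vehicle replicate 3 moved this difference past 2-fold, to 1.02 on the log2 scale. Against sham-vehicle, LPS-CPD-4645 mice held 13.1-fold more *Mt2* and 8.18-fold more *Mt1*.

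*Mt3*, the brain form, was at 474, 468, 411 and 265 CPM in the sham-vehicle libraries, at 314, 446, 435, 385 and 696 CPM after LPS, and at 325, 388, 378 and 464 CPM after LPS and CPD-4645. The groups overlapped throughout. The log2 fold change after LPS was 0.17 with a 95% interval of -0.23 to 0.57 (edgeR adjusted p = 0.59), so a rise of the size seen for *Mt1* or *Mt2* lay outside the interval; its sign turned without LPS-vehicle replicate 5 (-0.04). Under CPD-4645 the difference from LPS-vehicle was -0.23 with an interval of -0.63 to 0.17 (edgeR adjusted p = 0.39). In the sham-vehicle group, replicate 4 had the lowest level of all 3 metallothioneins.

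**Figure D2:**
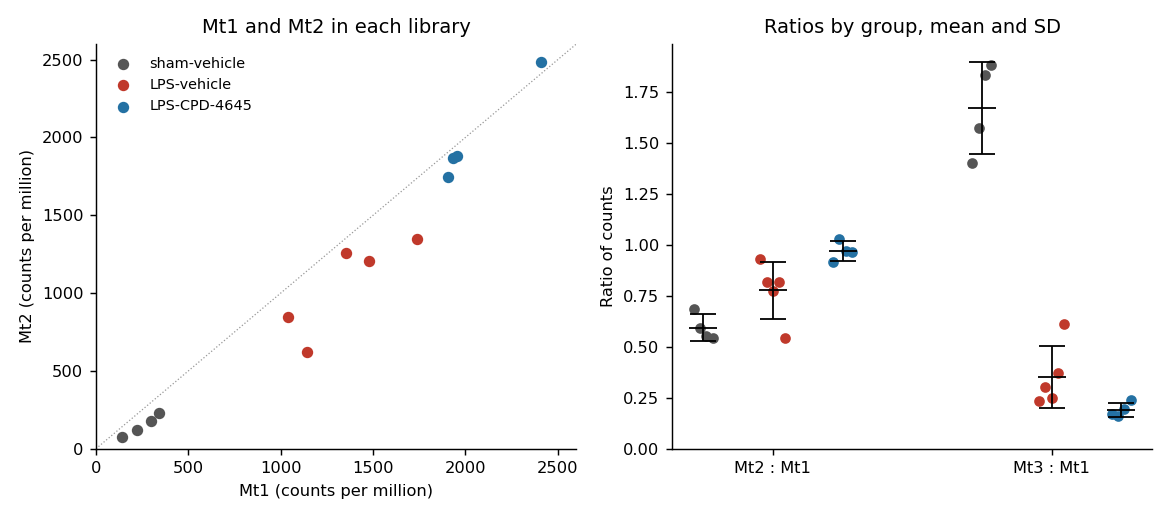
Left, CPM of *Mt1* (horizontal axis) and *Mt2* (vertical axis) in each of the 13 libraries, with a dotted line of equal CPM. Right, the ratio of the counts of *Mt2* to *Mt1* and of *Mt3* to *Mt1* in each library, with group mean and SD; within each ratio the groups stand in the order sham-vehicle (grey), LPS-vehicle (red) and LPS-CPD-4645 (blue), and the *Mt2* to *Mt1* ratio averages 0.593, 0.776 and 0.968.

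The mix of the 3 metallothionein messages is given by group as a description. The count of *Mt2* relative to *Mt1* was 0.593 ± 0.066 (SD, n = 4) without LPS, 0.776 ± 0.142 (SD, n = 5) with LPS and vehicle, and 0.968 ± 0.048 (SD, n = 4) with LPS and CPD-4645. The plot of *Mt1* and *Mt2* by library shows it as an approach to the line of equal CPM, and LPS-vehicle replicate 5 had the lowest ratio of that group, 0.545, as low as the lowest sham-vehicle library, so that these groups overlapped. Relative to *Mt1*, *Mt3* went from 1.67 ± 0.23 (SD, n = 4) in sham-vehicle to 0.353 ± 0.153 (SD, n = 5) and 0.191 ± 0.034 (SD, n = 4). In the principal transcripts of *Mt1* and *Mt3*, no stretch of 75 bases, the read length, was found in a transcript of another gene. In *Mt2*, 32.3% of the stretches were shared with Gm45774, which overlaps it on the other strand and was not analysed here.

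The metal importers differed from each other. *Slc39a14*, which carries zinc and iron that is not bound to transferrin, was at 27.9, 22.0, 24.4 and 23.9 CPM in the sham-vehicle libraries, at 75.1, 61.5, 67.6, 51.1 and 47.3 CPM after LPS, and at 67.6, 74.8, 57.7 and 45.6 CPM after LPS and CPD-4645. All 9 libraries of LPS-treated mice lay above all sham-vehicle libraries, and the LPS groups overlapped. The rise after LPS was 2.45-fold (log2 fold change 1.30, SE 0.15, edgeR adjusted p = 5.6e-06), though it did not pass a test against the 2-fold change itself (glmTreat). The CPD-4645 difference was 0.02 on the log2 scale with a 95% interval of -0.28 to 0.32 (edgeR adjusted p = 0.92). *Slc11a2*, which carries ferrous iron across membranes, ranged from 50.2 to 57.9 CPM in sham-vehicle libraries, from 49.1 to 74.8 CPM after LPS and from 54.7 to 70.4 CPM after LPS and CPD-4645. Its log2 fold change after LPS was 0.26 with an interval of 0.03 to 0.49, which did not pass the adjusted test (edgeR adjusted p = 0.11). The adjusted p passed in 2 of the 21 alternatives, at 0.012 with a replicate block and at 0.017 without LPS-vehicle replicate 5. *Tfrc*, the receptor for transferrin-bound iron, was at 155, 111, 146 and 169 CPM, at 129, 163, 158, 145 and 115 CPM, and at 137, 148, 128 and 169 CPM in the same order of groups. Its 95% intervals spanned -0.29 to 0.22 after LPS, -0.22 to 0.29 under CPD-4645 against LPS-vehicle and -0.27 to 0.27 against sham-vehicle on the log2 scale, all within 2-fold.

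**Figure D3:**
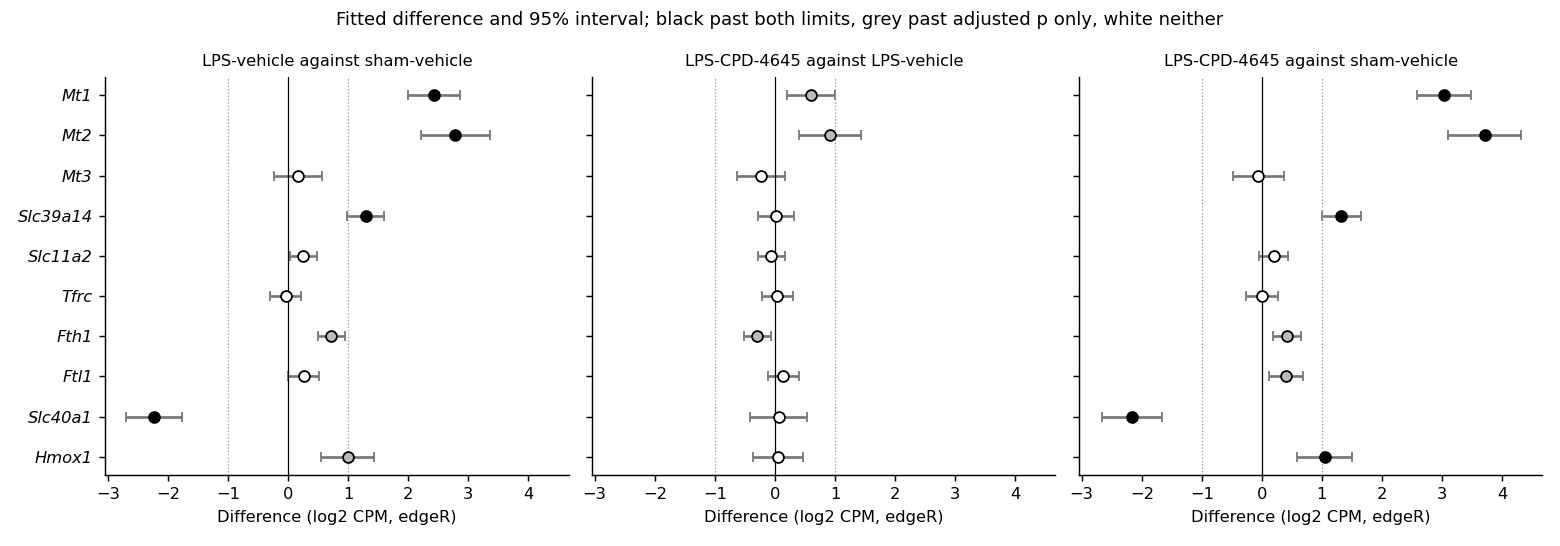
Fitted log2 differences (horizontal axis) of the 10 genes in the 3 comparisons, with 95% intervals; dotted lines mark 2-fold, and black, grey and white points mark genes past both limits, past the adjusted p alone and past neither. *Mt1* and *Mt2* lie right of 0 in every comparison, and the CPD-4645 differences of *Slc39a14*, *Slc40a1* and *Hmox1* from LPS-vehicle lie close to 0.

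*Slc40a1*, which encodes the iron exporter ferroportin, fell after LPS. Its level was 15.9, 11.3, 15.3 and 9.43 CPM in the sham-vehicle libraries, 2.82, 2.40, 2.52, 3.04 and 3.01 CPM after LPS, and 4.03, 2.27, 3.43 and 2.04 CPM after LPS and CPD-4645. The lowest sham-vehicle library was above all libraries of LPS-treated mice, and the LPS groups overlapped. *Slc40a1* fell to 0.213 of the sham-vehicle level after LPS (log2 fold change -2.23, SE 0.22, edgeR adjusted p = 9e-07) and stood at 0.223 of it in LPS-CPD-4645 mice (log2 fold change -2.17, SE 0.24, edgeR adjusted p = 2e-06). Under CPD-4645 the difference from LPS-vehicle was 0.06 with a 95% interval of -0.42 to 0.54. Against sham-vehicle, *Slc40a1* passed both limits in all 21 alternatives for either LPS group.

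Cell type markers were read beside *Slc40a1*, which microglia, macrophages, endothelial cells and oligodendrocytes are known to express. The 7 endothelial markers summed to 239 to 382, 244 to 497 and 254 to 386 CPM in sham-vehicle, LPS-vehicle and LPS-CPD-4645. After LPS *Cdh5* was higher past both limits (log2 fold change 1.14, edgeR adjusted p = 5.8e-05) and the transporter gene *Slco1a4* lower (-1.12, edgeR adjusted p = 0.025; not past both limits with DESeq2), while *Pecam1* (0.79) and *Cldn5* (0.66) were higher by the edgeR adjusted p alone and the other 3 did not pass. After LPS the summed level of 6 microglial markers went from 155 to 202 CPM in sham-vehicle to 118 to 204 CPM, with 2 of 6 markers lower (*P2ry12* and *Siglech*) and the other 4 not past both limits. In LPS-CPD-4645 mice the sum was 100 to 127 CPM, and against LPS-vehicle *Siglech* was higher (log2 fold change 1.68, edgeR adjusted p = 0.00029) and *Aif1* lower (-1.38, edgeR adjusted p = 0.0001) past both limits. The 7 monocyte and macrophage markers summed to 5.18 to 6.44, 10.4 to 23.5 and 4.51 to 9.01 CPM in sham-vehicle, LPS-vehicle and LPS-CPD-4645, and 4 of the 5 tested rose after LPS (among them *Ly6c2*; 3 with limma-voom). The 6 oligodendrocyte markers summed to 4450 to 6387, 3158 to 4180 and 3688 to 4762 CPM, with 1 higher and 1 lower past the threshold after LPS (none lower with limma-voom). By the edgeR adjusted p alone, 4 of these 6 were lower and 1 higher after LPS (background 19.9% in either direction). No list had a marker at 0 in any group. The part of these cell types in the fall of *Slc40a1* was not tested.

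Ferritin heavy chain rose by less than 2-fold after LPS. *Fth1*, whose product oxidizes and stores iron, was at 2103, 2219, 2167 and 1918 CPM in the sham-vehicle libraries, at 3403, 4262, 3184, 2874 and 3564 CPM after LPS, and at 2852, 3167, 2544 and 2721 CPM after LPS and CPD-4645. The sham-vehicle libraries lay below all others, and 3 of 4 LPS-CPD-4645 libraries lay below all LPS-vehicle libraries. *Fth1* rose 1.65-fold after LPS (log2 fold change 0.72, SE 0.11, edgeR adjusted p = 9.2e-05). The CPD-4645 difference was -0.29 (95% interval -0.52 to -0.07, edgeR adjusted p = 0.044), a call that held in 10 of the 21 alternatives, with adjusted p from 0.018 to 0.13 over them. LPS-CPD-4645 mice stayed 1.34-fold above sham-vehicle (edgeR adjusted p = 0.0058).

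*Ftl1*, the light chain, was at 60.9, 67.1, 57.4 and 51.2 CPM in the sham-vehicle libraries, at 71.5, 88.1, 56.3, 55.7 and 81.2 CPM after LPS, and at 74.5, 86.7, 75.1 and 75.8 CPM after LPS and CPD-4645. The LPS-vehicle libraries overlapped with both other groups, and LPS-CPD-4645 lay above sham-vehicle. After LPS the log2 fold change was 0.26 with a 95% interval of -0.0022 to 0.52 (edgeR adjusted p = 0.16). Against sham-vehicle, *Ftl1* was 1.32-fold higher in LPS-CPD-4645 mice (edgeR adjusted p = 0.023), and the adjusted p was 0.075 without LPS-CPD-4645 replicate 2 and 0.064 without sham-vehicle replicate 4. These counts are uncertain: 84.8% of the 75-base stretches of the *Ftl1* transcript also occur in transcripts of 8 other genes, among them *Ftl1-ps1*, *Ftl1-ps2* and *Ftl2-ps*, and STAR's gene counts leave out reads that map to more than 1 place. In *Fth1* the share was 2.32%. The ratio of *Ftl1* to *Fth1* counts, 0.0281 ± 0.0018 (SD, n = 4) without LPS, 0.0203 ± 0.0019 (SD, n = 5) with LPS and 0.0277 ± 0.0014 (SD, n = 4) with LPS and CPD-4645, can thus be compared between groups but not read as the ratio of the chains.

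*Hmox1*, which degrades haem and so frees iron, was at 6.36, 8.08, 8.64 and 6.27 CPM in the sham-vehicle libraries, at 16.1, 16.4, 18.5, 10.7 and 11.9 CPM after LPS, and at 10.6, 20.6, 17.0 and 12.1 CPM after LPS and CPD-4645. Both LPS groups lay above sham-vehicle and overlapped with each other. *Hmox1* was 1.99-fold higher after LPS (log2 fold change 0.99, SE 0.21, edgeR adjusted p = 0.0021) and 2.06-fold higher in LPS-CPD-4645 mice (log2 fold change 1.04, SE 0.22, edgeR adjusted p = 0.00096), so that it fell on either side of the 2-fold limit with nearly the same change. Both limits were passed in 5 of 21 alternatives for the first and in 17 of 21 for the second; without LPS-CPD-4645 replicate 2 the second was 0.85 on the log2 scale. Red cell markers moved the other way: the 7 erythrocyte markers (among them *Hba-a1* and *Hbb-bs*) summed to 468 to 958 CPM in sham-vehicle, 239 to 461 CPM in LPS-vehicle and 325 to 706 CPM in LPS-CPD-4645, and 4 of the 4 tested were lower after LPS by the edgeR adjusted p alone. Their part in the level of *Hmox1* was not tested.

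Levels of different genes were compared per kilobase of the principal transcript. In sham-vehicle mice *Fth1* was highest at 1407 ± 88 (SD, n = 4) CPM per kilobase, followed by *Mt3* at 755 ± 181, *Mt1* at 457 ± 159 and *Mt2* at 298 ± 132; *Mt3* and *Mt1* overlapped between libraries, as did *Mt1* and *Mt2*. *Tfrc* stood at 29.7 ± 5.1 and *Slc11a2* at 17.8 ± 1.3, and *Slc39a14* at 4.99 ± 0.50, *Hmox1* at 4.68 ± 0.77 and *Slc40a1* at 3.86 ± 0.93 overlapped at the bottom. *Ftl1* was given no place in this order, since most of its transcript is shared with other genes. In LPS-CPD-4645 mice *Mt2*, at 3903 ± 649 (SD, n = 4), and *Mt1*, at 3737 ± 437, were above *Fth1*, at 1888 ± 176. These levels depend on the length used. Per kilobase of all exons of a gene, the sham-vehicle means were 606 for *Fth1*, 380 for *Mt3*, 259 for *Mt2* and 201 for *Mt1*, which turns the order of *Mt1* and *Mt2*, and *Hmox1* lay above *Slc39a14* without overlap. The place of *Fth1* against *Mt1* after LPS, where they stood at 2314 and 2459 per kilobase of transcript, was not settled either.

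Other genes of metal handling were counted over 89 genes, of which 83 were tested. After LPS 11 passed both limits (background 5.68%), all higher (background 4.68%), as did 10 with limma-voom and 11 with DESeq2. By the edgeR adjusted p alone 22 passed (background 19.9%), 18 of them higher and 4 lower, and 29 had an unadjusted p under 0.05. *Lcn2*, which binds iron-loaded siderophores, rose from 23.5 ± 23.1 (SD, n = 4) to 700 ± 191 (SD, n = 5) CPM, a log2 fold change of 4.87. *Hp*, the haemoglobin scavenger haptoglobin, rose from 0.409 to 9.42 CPM (4.42), *Ltf*, the iron-binding lactoferrin, from 0.345 to 4.99 CPM (3.83) and *Steap4*, a metalloreductase, from 0.936 to 10.8 CPM (3.46). *Cp*, the ferroxidase ceruloplasmin that works with ferroportin, rose from 11.2 ± 2.0 (SD, n = 4) to 62.6 ± 14.1 (SD, n = 5) CPM (2.48). *Tmprss6*, a protease that restrains hepcidin production, rose from 0.196 to 0.862 CPM (2.24), with overlap between the groups. The 5 others were *Hamp*, *Cd163*, *Scara5*, *Slc31a2* and *Osgin1*, of which all but *Scara5* were named after their values were seen. *Hamp*, which encodes the hormone hepcidin, was at 0.166 CPM in sham-vehicle and 1.61 CPM in LPS-vehicle mice. By list, 4 of 11 genes of transferrin and iron uptake rose, 1 of 5 tested partners of storage and export, 2 of 8 tested genes of iron sensing, and 2 of 11 of haem clearance, with medians of 0.33, -0.10, 0.07 and -0.02 on the log2 scale.

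**Figure D4:**
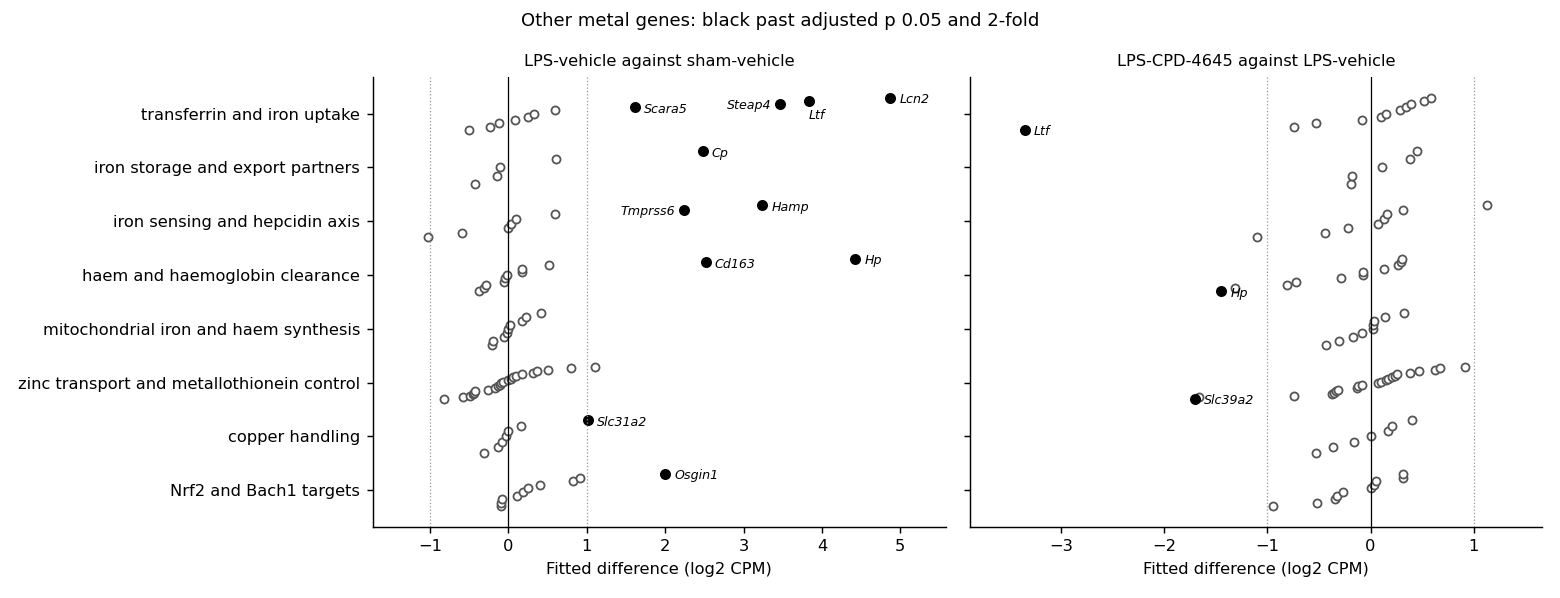
Fitted log2 differences (horizontal axis) of the tested genes of the metal handling lists (rows), after LPS on the left and under CPD-4645 against LPS-vehicle on the right; black points passed both limits, white points did not, and dotted lines mark 2-fold. The 11 genes past the limits on the left are higher, and the 3 on the right (*Ltf*, *Hp* and *Slc39a2*) are lower.

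Under CPD-4645, 3 of these 83 genes passed both limits against LPS-vehicle mice, a share below the 5.90% of all genes tested, all lower (4 with limma-voom and 3 with DESeq2, all lower; 36 had an unadjusted p under 0.05). *Ltf* fell from 4.99 ± 3.71 (SD, n = 5) to 0.53 ± 0.33 (SD, n = 4) CPM (log2 fold change -3.35, edgeR adjusted p = 0.00063), *Hp* from 9.42 ± 5.12 (SD, n = 5) to 3.48 ± 1.04 (SD, n = 4) CPM (-1.44, edgeR adjusted p = 0.0066) and the zinc importer *Slc39a2* from 4.84 ± 1.85 (SD, n = 5) to 1.48 ± 1.11 (SD, n = 4) CPM (-1.70, edgeR adjusted p = 0.005). *Ltf* and *Hp* are also neutrophil genes. The 8 neutrophil markers summed to 3.26 to 9.49 CPM in sham-vehicle, 49.0 to 190.0 CPM in LPS-vehicle and 3.61 to 20.4 CPM in LPS-CPD-4645, with 4 of the 5 tested higher after LPS and 5 of the 5 lower under CPD-4645 (*S100a8*, *S100a9* and *Csf3r* among them; 4 with DESeq2), and none was at 0 in a whole group. Their part in *Ltf*, *Hp* and *Lcn2* was not tested. *Lcn2* was at 778 ± 125 (SD, n = 4) CPM in LPS-CPD-4645 mice, a log2 fold change of 5.02 from sham-vehicle, and did not pass both limits against LPS-vehicle. Against sham-vehicle 8 of the 83 genes were higher (background 6.11%) and 3 were lower (background 4.98%) in LPS-CPD-4645 mice, *Steap4* (3.99), *Tmprss6* (3.37), *Hp* (2.98), *Cp* (2.29) and *Scara5* (2.20) being the next in size.

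Genes of other pathways known to raise metallothioneins were read beside *Mt1* and *Mt2*. The 8 glucocorticoid response genes summed to 339 to 433 CPM in sham-vehicle, 752 to 1043 CPM in LPS-vehicle and 1274 to 1384 CPM in LPS-CPD-4645, the same order of groups as *Mt1* and *Mt2* and likewise without overlap. After LPS 4 of 8 passed both limits (background 5.68%), among them *Fkbp5* (log2 fold change 2.17), and *Per1* (0.73) and *Tsc22d3* (0.52) passed the adjusted p alone. Under CPD-4645 2 of 8 were higher than in LPS-vehicle past both limits, *Per1* (1.35) and *Klf9* (1.07), against a background of 5.90% in either direction. By the adjusted p alone 6 of 8 passed, all higher (background 30.5%, or 14.1% for higher). *Tsc22d3* (0.14) and *Pdk4* (-0.02) did not. The 8 interleukin-6 and STAT3 response genes, among them *Socs3*, *Stat3* and *Bcl3*, were all higher after LPS, at 77.5 to 108 CPM in sham-vehicle and 595 to 1738 CPM in LPS-vehicle, and 0 of 8 passed both limits under CPD-4645 against LPS-vehicle by edgeR, limma-voom or DESeq2 (574 to 932 CPM). By the edgeR adjusted p alone 1 of them was higher there, *Stat3* at 0.78, and 1 was lower, with 4 at an unadjusted p under 0.05. *Mtf1*, which encodes the zinc-sensing factor, had log2 fold changes of 0.06 after LPS and 0.23 under CPD-4645, neither past the test; against sham-vehicle it was 0.29 higher in LPS-CPD-4645 mice, without overlap and past the adjusted p alone (edgeR adjusted p = 0.028). Astrocytes are a known site of metallothionein expression: the 7 astrocyte markers summed to 1626 to 2104, 2139 to 2776 and 1980 to 2548 CPM, with 1 of 7 past both limits after LPS (*Gfap*, 2.40) and 0 of 7 under CPD-4645 against LPS-vehicle by edgeR, limma-voom or DESeq2, where 1 had an unadjusted p under 0.05. The part of these pathways and cells in the metallothionein levels was not tested.

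The genes whose pattern over the 13 libraries lay closest to each of the genes past the threshold were found by the mean absolute difference of centred log2 CPM among 14844 genes; as all points share the libraries and the group effect, these are descriptions. *Angptl4* (0.22), *Emp1* (0.27) and *Serpina3n* (0.28) were closest to *Mt1*, and *Serpina3n* (0.28), *Steap4* (0.30) and *Mt1* itself (0.30) to *Mt2*. For *Slc39a14* they were *Parp12* (0.12), *Sat1* (0.13) and *Plce1* (0.14), for *Slc40a1* *Itm2a* (0.30), *Pltp* (0.33) and *Pllp* (0.33), and for *Hmox1* *Tlr3* (0.16), *Rela* (0.17) and *Nedd9* (0.19). None of the other 9 genes described here was among the nearest 3 of *Slc40a1*, *Slc39a14* or *Hmox1*.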

How the data were processed

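RNA of the brain vascular fraction of 13 mice was sequenced in single-end reads of 75 bases from a stranded kit. The authors converted reads with bcl2fastq 2.15.0.4, aligned them to mm10 (GRCm38) with STAR 2.5.2a and had STAR count reads for each gene of the basic set of GENCODE M9; the deposited values are whole-number counts with no normalization. The strand setting of these counts is not given in the sources used here. Identifiers were matched, without version, to GENCODE M21 on the same build (47224 of 47643). Groups and replicate numbers came from the sample labels, 1 mouse per library.

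Counts were fitted with edgeR 4.0.16 (filterByExpr with a minimum count of 10, TMM factors of 0.908 to 1.08, quasi-likelihood test of the 3 groups in 1 fit without covariates), and p values were adjusted by Benjamini-Hochberg over all 17285 genes tested. The threshold was the study's, an adjusted p of at most 0.05 and at least 2-fold. Standard errors and 95% intervals came from the same fit; CPM used TMM-scaled library sizes and log2 CPM a prior count of 2. limma-voom 3.58.1 (the study's test), DESeq2 1.42.0, other filters and scalings, a replicate block and leaving out libraries were alternatives. Promoter windows and motifs came from RefSeq (GRCm38.p6), and transcripts from GENCODE M21.

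Named genes were the 10 genes, up to 6 genes of the metal lists per comparison past the threshold and averaging 1 CPM or more, up to 3 genes of each marker and regulator list in list order, and the 3 nearest genes. *Siglech*, *Aif1*, *Slco1a4*, *Csf3r*, *Klf9*, *Pdk4*, *Mtf1*, *Slc31a2*, *Osgin1*, *Hamp* and *Cd163* fell outside this rule and were named after their values were seen. The genes and lists were chosen with earlier results of these data known. Motif letters, count ratios and shared 75-base stretches were chosen after the data were seen.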

Additional observations from a re-analysis of the deposited data

Results flagged for a closer look

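LPS-CPD-4645 replicate 2 stood apart from the other 3 libraries of its group for 2 of the 10 genes: *Mt1* was at 2410 CPM there against 1907 to 1956 CPM, and *Ftl1* was at 86.73 CPM against 74.48 to 75.78 CPM. Both gaps exceeded Dixon's 95% limit. Of 30 sets of a gene and a group tested, these 2 passed, and chance passes about 1 in 20. Without this library the *Mt1* difference between LPS-CPD-4645 and LPS-vehicle was 0.52 on the log2 scale (edgeR adjusted p = 0.079), and the *Ftl1* difference between LPS-CPD-4645 and sham-vehicle was 0.34 (edgeR adjusted p = 0.075). It also held the highest *Mt2*, *Slc39a14*, *Fth1* and *Hmox1* levels of its group, at 2483, 74.8, 3167 and 20.6 CPM, so that it was highest for 6 of the 10 genes.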

How the results depend on the processing

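The calls of *Mt1*, *Mt2*, *Slc39a14* and *Slc40a1* past both limits against sham-vehicle held in all 21 alternatives for LPS-vehicle and for LPS-CPD-4645, with no reversed value, under limma-voom and DESeq2 among them; the tests with another fold limit, given next, are not among the 21. Without a fold limit the genes past the test were 3446 of all genes and 22 metal list genes after LPS, 3 of the 10 genes, 5271 of all and 22 metal list genes under CPD-4645 against LPS-vehicle, and 6713 of all and 30 metal list genes under CPD-4645 against sham-vehicle. With glmTreat, which tests against the 2-fold change itself, they were 3 of the 10 (*Mt1*, *Mt2* and *Slc40a1*), 439 of all and 5 metal list genes after LPS, 65 of all and 1 metal list gene under CPD-4645 against LPS-vehicle, and the same 3 of the 10, 561 of all and 6 metal list genes against sham-vehicle. A mean count of at least 50, which tests fewer genes, left 7 metal list genes after LPS and 632 of all genes under CPD-4645 against LPS-vehicle. Without the 2 shallowest libraries 1 of the 10 genes passed both limits under CPD-4645 against LPS-vehicle (*Mt2*, 1.08 on the log2 scale). Leaving out 1 library at a time, the 10 genes gave 4 to 5 calls after LPS, 0 to 1 under CPD-4645 against LPS-vehicle (*Mt2* without LPS-vehicle replicate 3) and 4 to 5 against sham-vehicle; all genes gave 909 to 1007, 854 to 1082 and 1740 to 1956, and metal list genes 9 to 11, 3 to 4 and 9 to 12. Equal replicate numbers did not mark pairs: deviations from the group means correlated at -0.035 to 0.114, above 0.1 in 1 of 12 pairs. With a replicate block, *Hmox1* after LPS came to 1.07 on the log2 scale, past 2-fold, *Slc11a2* after LPS passed the adjusted p alone (0.34, edgeR adjusted p = 0.012), and the *Mt3* value after LPS was -0.04. The cause of these shifts was not tested. Depth limits the lowest genes, such as *Slc40a1* at a count of 20.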

Other observations

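The counts of zinc, copper and mitochondrial iron genes are given beside the 5.68%, 5.90% and 11.1% of all genes that passed both limits after LPS, under CPD-4645 against LPS-vehicle and against sham-vehicle, shares at which lists of this size would hold few calls or none. Of 22 tested genes of zinc transport and metallothionein control, 0 passed both limits after LPS by edgeR, limma-voom or DESeq2 (by the edgeR adjusted p alone 2 were higher and 3 lower, and 7 had an unadjusted p under 0.05), and *Slc39a2* was lower under CPD-4645. Under CPD-4645 against LPS-vehicle, 2 of the 22 were higher and 4 lower by the edgeR adjusted p alone (background 30.5%), and 12 had an unadjusted p under 0.05. Of 9 genes of mitochondrial iron use and haem synthesis, 0 passed both limits in any comparison by edgeR, limma-voom or DESeq2, and 2, 3 and 3 had an unadjusted p under 0.05 by edgeR after LPS, under CPD-4645 against LPS-vehicle and against sham-vehicle. Of 7 copper genes, the transporter *Slc31a2* was higher after LPS (log2 fold change 1.01, edgeR adjusted p = 0.0002) by edgeR and DESeq2, and 0 passed both limits by limma-voom. Of 10 targets and partners of Nrf2 and Bach1, factors that also act on *Hmox1* and the ferritins, *Osgin1* was higher after LPS, at 0.404 CPM in sham-vehicle and 1.57 CPM in LPS-vehicle mice, with overlap between the groups, and 0 of 10 passed both limits under CPD-4645 against LPS-vehicle by edgeR or DESeq2 and 1, lower, by limma-voom (2 higher and 3 lower by the edgeR adjusted p alone, with 5 at an unadjusted p under 0.05).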
